A study of Homo sapiens with 16 samples.

Results

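The terminal 3 Mb of the short arms of 15 human chromosomes (1 to 12, 16, 18 and 20) were taken as all peaks that end at most 3 Mb from the first base of the chromosome in hg19. The rule uses position and chromosome and no peak's measured value, although it was set with earlier results of these data known. The rule gave 988 of 31050 peaks in 4 lists. They comprise 146 of 3332 BG4 peaks in siControl, 157 of 4257 in siBAZ2A, 190 of 4865 in siBAZ2B, and 495 of 18596 H3K4me3 peaks. Merging BG4 peaks that overlap gave 235 of the 6206 BG4 loci.

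The cells were A549, an established human lung carcinoma line. All of them were transfected with siRNA at 71 nM and kept for 48 hours: a control siRNA (siControl), siRNA against BAZ2A (siBAZ2A) or siRNA against BAZ2B (siBAZ2B). CUT&Tag, in which a bound antibody directs a transposase to cut and tag the DNA beside it, was made with BG4 in all 3 treatments and with an H3K4me3 antibody in siControl cells, and Drosophila chromatin was added to every sample. Each of the 4 groups had 4 replicates, and each deposited list merges them, so the lists carry no replicate error and no difference between treatments could be tested. Intervals are 95% intervals over peaks and cover counting error only. Neither read depth nor the level of BAZ2A or BAZ2B after transfection is given in the sources used here.

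A G-quadruplex (G4) is a stacked structure that single strands of guanine-rich DNA can fold into, and BG4 is an antibody fragment that binds it. In chromatin most BG4 signal lies at nucleosome-depleted promoters, which H3K4me3, the histone mark of active promoters, also marks. The ends of human chromosomes are rich in genes and in guanine and cytosine on several arms, carry duplicated subtelomeric blocks shared between chromosomes, and finish in the telomeric repeat, itself a textbook G4-forming sequence. BAZ2A (also TIP5) anchors the nucleolar chromatin remodeller NoRC, which represses copies of the ribosomal RNA genes, and BAZ2B is its close relative, a bromodomain subunit of other ISWI-type remodellers.

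On 6 chromosomes the outermost BG4 locus lay close to the chromosome start. In hg19 most chromosomes begin with an unresolved gap, followed at several by telomeric repeat. Chromosomes 1, 2, 4, 5, 7 and 18 had a BG4 locus starting within 20 kb of the chromosome start, and 5 of these 6 loci were in all 3 BG4 lists. Of the 6, 4 lay on an H3K4me3 peak. Over all 6206 BG4 loci, 37.4% were in all 3 lists and 88.9% lay on an H3K4me3 peak.

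The strength of a peak is given here as the fold enrichment from the authors' peak caller, used only to rank peaks within their own list. The locus at chr1:9868-10466 had folds of 18.0 (siControl), 16.3 (siBAZ2A) and 17.7 (siBAZ2B), at percentiles 99.6, 99.7 and 99.7 of the lists. At chr7:9842-10322 the folds were 16.1, 12.3 and 18.4 in the same order, at percentiles 99.4, 97.5 and 99.7. Both loci were therefore near the top of each list by fold, the chromosome 7 locus less so in siBAZ2A. At chr18:9897-10535 the folds were 14.7, 9.16 and 13.3, and at chr4:9872-10325 they were 9.57, 7.92 and 11.9. The chromosome 4 locus had no H3K4me3 peak, whereas those of chromosomes 1, 7 and 18 overlapped H3K4me3 peaks of fold 11.5, 6.90 and 7.48. The chr2:10727-11216 locus had a fold of 7.05 in siControl and 9.64 in siBAZ2B, was missing from the siBAZ2A list, and had no H3K4me3 peak. The sequence under these loci was not analysed here.

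The locus at chr5:9988-11795 differed in form from those of the other 5 chromosomes. Its peaks were 1794 bp wide in siControl, 1748 in siBAZ2A and 1792 in siBAZ2B, and the H3K4me3 peak there had nearly the same borders, chr5:10005-11754. The folds were only 6.03, 6.35 and 6.65, yet the −log10 q was 96.5, 78.9 and 115. The H3K4me3 peak had the same combination, with a fold of 6.33 and a −log10 q of 59.7.

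The same pairing of low fold and high −log10 q recurred in 3 neighbouring loci of chromosome 1, which were in all 3 BG4 lists and had no H3K4me3 peak. At chr1:567253-567944 the fold was 5.73, 5.97 and 5.87, with a −log10 q of 61.8, 77.4 and 79.2 in siControl, siBAZ2A and siBAZ2B. At chr1:564690-565351 the fold was 4.67, 4.79 and 4.67, and at chr1:565959-566737 it was 4.33, 4.45 and 4.45. This stretch of hg19 is known to hold a nuclear copy of mitochondrial DNA. The mitochondrial chromosome itself also had peaks in every list, the most prominent of them with folds of 2.01 in siControl, 2.16 in siBAZ2A and 1.89 in siBAZ2B, and its part in the chromosome 1 loci was not tested. The 3 loci were singled out after their values were seen.

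None of the other 9 chromosomes had a BG4 locus starting within 20 kb of the chromosome start. These distances include the unresolved gap, whose length on each chromosome was not taken into account. Nearness to the first sequenced base was therefore not compared between chromosomes. The outermost locus started at 60207 on chromosome 16, 73990 on chromosome 12, 175299 on chromosome 11, 270891 on chromosome 20, 292123 on chromosome 6, 310673 on chromosome 10, 494474 on chromosome 8 and 998660 on chromosome 9. Chromosome 3 had 1 H3K4me3 peak in its terminal 3 Mb and no BG4 locus. The outermost loci of chromosomes 8 and 16 were in all 3 lists. Those of chromosomes 11 and 12 were in siControl and siBAZ2B, and those of chromosomes 6, 9, 10 and 20 were in 1 knockdown list only.

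The loci were unevenly spread. Chromosome 16 held 68 of the 235, chromosome 11 held 34, chromosome 1 held 31, chromosome 4 held 22 and chromosome 7 held 18. Chromosomes 6 and 9 had 2 each. The most crowded 0.5-Mb window was 2.5 to 3 Mb on chromosome 16, with 18 loci of which 5 were in all 3 lists. The neighbouring window from 2 to 2.5 Mb had 16 loci, of which 11 were in all 3. In the whole series 37.4% of loci were in all 3 lists. The H3K4me3 peaks were crowded on the same arm, which had 123 of the 495.

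**Figure D1:**
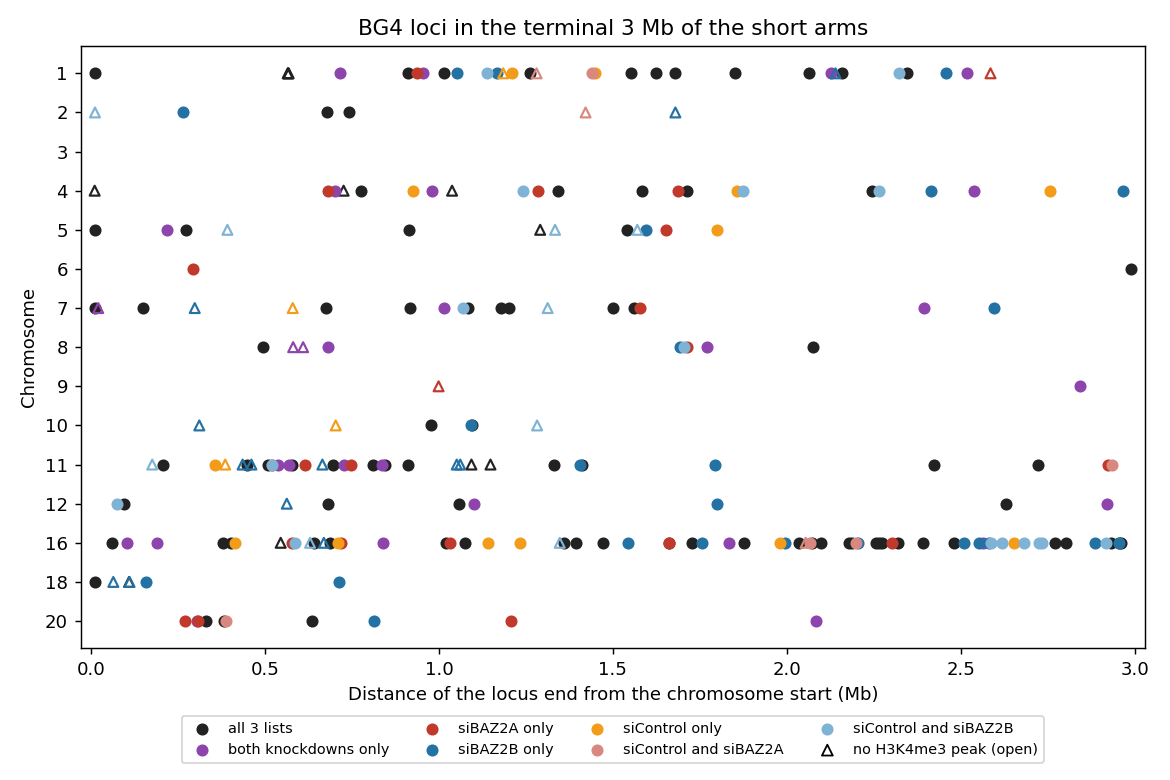
Position of the 235 merged BG4 loci, with the distance of the locus end from the chromosome start in Mb on the horizontal axis and 1 row per chromosome. Colour gives the lists that hold a locus, and open triangles mark the 45 loci without an H3K4me3 peak, of which 40 end in the first 1.5 Mb.

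BG4 peaks were more numerous per H3K4me3 peak in the terminal 3 Mb than in the rest of the same chromosomes, in all 3 lists. There were 29.5 siControl BG4 peaks per 100 H3K4me3 peaks (24.4 to 35.5), against 16.3 in the rest. The ratio was 31.7 (26.3 to 38.0) against 22.3 in siBAZ2A, and 38.4 (32.3 to 45.5) against 25.4 in siBAZ2B. The terminal intervals lay above the value of the rest in each list. Both kinds of peak were concentrated there: the windows held 6.83% of the siControl BG4 peaks and 3.89% of the H3K4me3 peaks of the 15 chromosomes.

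With distance from the chromosome start the ratio showed no steady slope inside the 3 Mb. In 6 steps of 0.5 Mb it was 26.9, 27.8, 45.5, 20.7, 32.8 and 25.0 in siControl. In siBAZ2A it was 29.0, 40.7, 36.4, 22.0, 35.8 and 23.5, and in siBAZ2B 37.6, 40.7, 45.5, 29.3, 38.8 and 38.2. The step from 1.5 to 2 Mb was the lowest of the 6 in each list, and these steps rest on 67 to 108 H3K4me3 peaks, so their intervals overlap widely. Beyond the windows the siControl ratio was 21.2 at 3 to 6 Mb, 19.3 at 6 to 10 Mb and 16.1 further in. The siBAZ2A ratio was 25.8, 26.4 and 22.1 at the same distances, and the siBAZ2B ratio 26.1, 30.6 and 25.2.

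The share of H3K4me3 peaks that carry a BG4 peak gave the same order. A siControl BG4 peak lay on 119 of the 495 terminal H3K4me3 peaks, or 24.0% (20.5 to 28.0), against 14.6% in the rest and 16.0% in the whole list. In siBAZ2A the share was 27.5% (23.7 to 31.6) against 20.6%, with 21.1% in the whole list. In siBAZ2B it was 30.5% (26.6 to 34.7) against 22.8%, with 23.4% in the whole list. The terminal share was thus above that of the rest under each treatment, by the widest margin in siControl. In siBAZ2B the interval included the rest when the list was cut to the siControl length, at 18.8% (15.6 to 22.5) against 16.5%, and in a 1 Mb window, at 26.4% (20.8 to 32.9) against 23.0%. Whether the margin differs between treatments could not be tested.

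The H3K4me3 peaks of the windows were wider than those elsewhere and weaker by fold, which moves with this result. Their median width was 1259 bp against 1146 bp in the rest, and their median percentile by fold was 38.7 (35.3 to 42.4) against 51.5, but 49.9 against 52.3 by −log10 q. When the 5 quintiles of H3K4me3 width were given equal weight, the shares were 23.0% against 14.4% in siControl, 25.6% against 20.3% in siBAZ2A and 29.2% against 22.4% in siBAZ2B. At equal quintiles of H3K4me3 fold they were 24.7% against 14.6%, 28.0% against 20.5% and 31.6% against 22.6%. The order of these means was the same at equal width and at equal fold, but the gap was widest among narrow H3K4me3 peaks. In siControl 19 of 100 peaks of the narrowest quintile carried BG4 against 4.14% in the rest, while in the 2 widest the shares were 21.4% (14.5 to 30.2) against 19.1% and 33.1% (25.9 to 41.2) against 28.3%. In siBAZ2A the narrowest quintile had 17 of 100 against 6.48% and the next to widest 29.1% against 28.4%, and in siBAZ2B the same 2 had 18.0% against 7.34% and 34.0% against 32.0%.

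**Figure D2:**
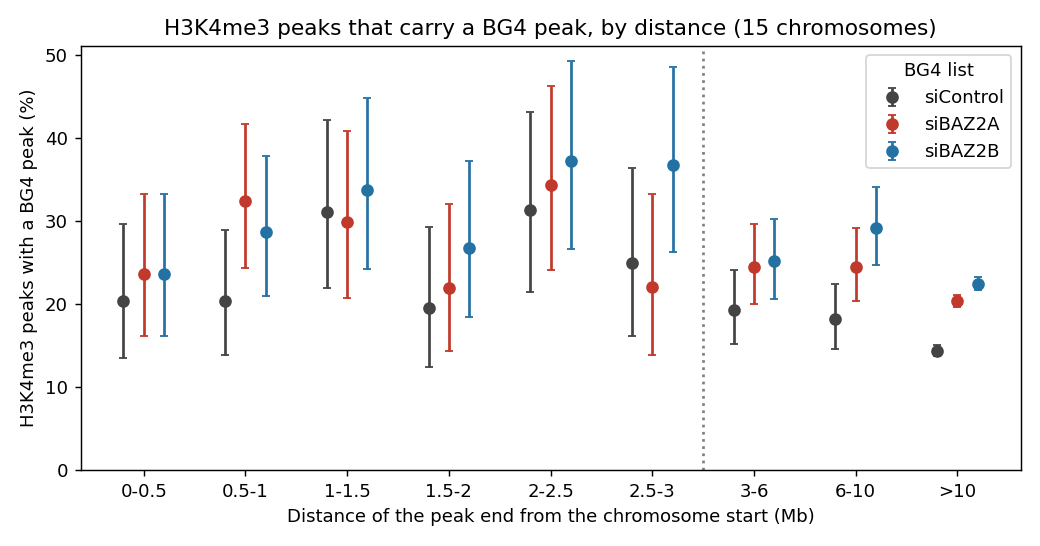
Share of H3K4me3 peaks with at least 1 base in common with a BG4 peak, in percent, by distance of the peak end from the chromosome start in Mb, with 95% Wilson intervals. Colours are the 3 BG4 lists, and the dotted line marks 3 Mb. The siControl share is 14.4% beyond 10 Mb and between 19.5% and 31.3% in the 6 terminal steps.

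Chromosome 16 had the highest terminal share in siControl. There 44 of 123 terminal H3K4me3 peaks, or 35.8%, had a siControl BG4 peak, against 18.6% of the rest of that chromosome. The siBAZ2A share was 33.3% against 26.1%, and the siBAZ2B share 39.8% against 25.7%. Without chromosome 16 the terminal shares were 20.2% against 14.4% in siControl, 25.5% against 20.3% in siBAZ2A and 27.4% against 22.6% in siBAZ2B. All 3 kept their order. With equal weight to the quintiles of H3K4me3 width as well, the siControl share was 18.7% (14.8 to 22.6) against 14.2%. The siBAZ2A share was then 23.7% (19.4 to 28.0) against 20.0%, and the siBAZ2B share 25.9% (21.4 to 30.3) against 22.2%. Both knockdown intervals thus included the rest at equal width, while at equal quintiles of H3K4me3 fold no interval did.

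Individual arms differed. Among the 13 chromosomes with at least 10 terminal H3K4me3 peaks, the terminal share was above that of the rest of the chromosome on 8 in siControl, 7 in siBAZ2A and 9 in siBAZ2B. On chromosome 4 the siControl share was 27.5% against 7.64%, and on chromosome 1 it was 25.4% against 14.0%. Chromosome 20 went the other way, at 11.4% against 18.2%, with the siBAZ2B share at 17.1% against 26.6%. These single-arm shares rest on 11 to 123 H3K4me3 peaks each.

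The windows were also set beside other 3-Mb stretches of the 15 chromosomes. Of 109 stretches with at least 30 H3K4me3 peaks, a minimum chosen after seeing the data, 7 were terminal. For siControl, siBAZ2A and siBAZ2B these 7 had median ratios of 33.3, 35.0 and 40.0, against 20.6, 25.6 and 29.0 for the other 102. Of the 7, 5 were above the others' median in siControl and 6 in each knockdown list. The highest of the other stretches reached 46.5, 46.2 and 54.8, above every terminal one, so interior stretches with as many BG4 peaks per H3K4me3 peak do occur.

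Terminal BG4 peaks were not stronger than others by fold. The median percentile within the list was 44.0 (37.1 to 58.0) in siControl, against 50.2 in the rest of the 15 chromosomes. It was 41.8 (34.0 to 53.4) against 49.5 in siBAZ2A, and 41.6 (33.7 to 49.1) against 51.2 in siBAZ2B. The interval lay below the value of the rest in siBAZ2B only. Ranked by −log10 q instead, a choice made after seeing the data, the medians were 53.4 against 47.5, 51.7 against 47.4 and 50.8 against 48.8, so the order turned in all 3 lists. The strongest quintile of each list supplied 21.9% of the terminal siControl peaks, 21.0% of the siBAZ2A peaks and 17.4% of the siBAZ2B peaks, and the weakest quintile supplied 20.5%, 22.9% and 28.9%.

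By distance, the siControl median percentile was 58.0 in the first 0.5 Mb and 37.4, 36.1, 58.2, 39.9 and 50.8 in the following steps. In siBAZ2A it was 39.3, 35.8, 34.2, 43.7, 48.1 and 56.3, and in siBAZ2B 52.8, 41.6, 36.4, 38.2, 34.1 and 47.2. The lists shared no single slope, and each step rests on 16 to 44 peaks. The steps from 0.5 to 1.5 Mb and from 2 to 2.5 Mb were below the middle of the list under every treatment. The interval of each of these medians included the middle of the list.

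**Figure D3:**
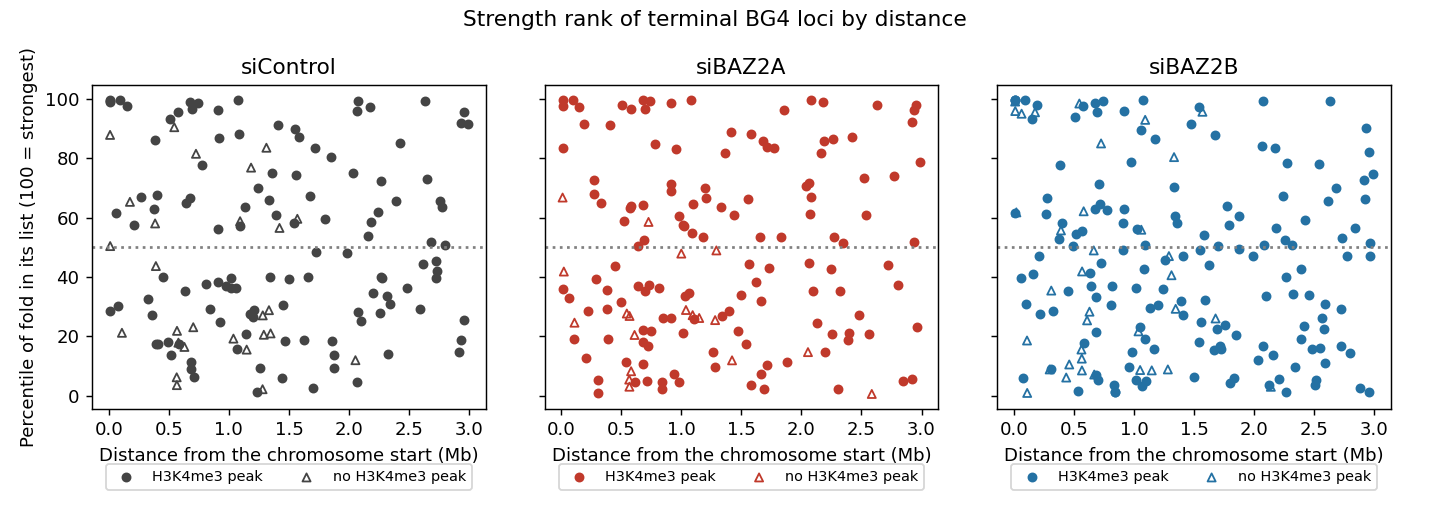
Percentile of fold within its own list (100 is the strongest peak) against distance from the chromosome start in Mb, for the terminal BG4 loci of siControl, siBAZ2A and siBAZ2B. Open triangles are loci without an H3K4me3 peak, and the dotted line is the middle of the list. Loci at the very start of chromosomes 1 and 7 sit at the top of each panel, above 97 in every list.

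The strongest terminal peaks were largely the same places under the 3 treatments, which was not particular to the windows. In the rest of the chromosomes, 3.36% of siControl peaks of the strongest quintile had no siBAZ2A peak and 2.33% no siBAZ2B peak. The terminal shares were 3.13% and 0%. The locus at chr12:95232-95872 had the highest terminal fold in siControl (18.2, rank 13 of the list) and in siBAZ2A (16.5, rank 10), and its siBAZ2B peak had a fold of 17. The peak at chr16:1075138-1075730 had a fold of 17.8 in siControl, and its counterparts had 16.4 in both knockdown lists. The start of chromosome 7 led in siBAZ2B (18.4, rank 13). The other peaks among the top 5 of a list were chr12:2629239-2630009 (16.0) in siControl, chr8:2075294-2075870 (16.2) and chr7:675419-676271 (15.3) in siBAZ2A, and the starts of chromosomes 1 and 18. All of these were in the 3 BG4 lists and on H3K4me3 peaks.

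The strongest H3K4me3 peaks did not all carry BG4. The terminal H3K4me3 peaks of highest fold, chr20:1757278-1758146 at 17.6 and chr1:28699-29754 at 16.5, had no BG4 peak in any list. The next, chr16:2178201-2178952 at 14.6, chr7:148865-149889 at 14.1 and chr7:1083806-1084660 at 14.1, had one in all 3. A strong promoter mark at a chromosome end was therefore seen both with and without BG4.

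At the inner border, the last BG4 peak inside 3 Mb was chr6:2988855-2989430 in siControl (fold 10.3), chr6:2988830-2989587 in siBAZ2A (8.73) and chr6:2988734-2989383 in siBAZ2B (7.28). The first peak beyond it was chr12:2999770-3000322 in siControl (6.43), chr6:2999894-3000319 in siBAZ2A (6.29) and chr12:2999405-3000173 in siBAZ2B (5.45).

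BG4 peaks outside H3K4me3 were concentrated towards the chromosome end. In siControl 119 of 146 terminal peaks, or 81.5%, lay on an H3K4me3 peak, against 90.1% in the rest and 89.9% in the whole list. The share was 87.3% against 93.0% in siBAZ2A (92.9% in the whole list), and 80.0% against 90.6% in siBAZ2B (90.4% in the whole list). All 3 terminal shares were below those of the rest when 1 common base counted. When 50% of both peaks had to overlap, the order turned to 34.9% against 30.9% in siControl and 29.3% against 25.3% in siBAZ2A, and in siBAZ2B it was 28.4% against 29.1%. The siBAZ2A interval also included the rest at a −log10 q of at least 5 (82.5 to 93.4 against 93.2%), without the first 0.2 Mb (82.7 to 93.04 against 92.96%), without chromosome 1 (82.5 to 93.2 against 92.8%) and in a 5 Mb window (84.9 to 93.1 against 92.9%).

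The difference came from the outer part of the windows. In the first 1.5 Mb, a split chosen after seeing the steps, 72.2% of siControl peaks (65 of 90), 81.8% of siBAZ2A peaks (81 of 99) and 69.3% of siBAZ2B peaks (79 of 114) lay on H3K4me3. From 1.5 to 3 Mb the shares were 96.4% (54 of 56), 96.6% (56 of 58) and 96.1% (73 of 76). The outer part was thus below the rest of the chromosomes in every list. The inner part was above it, but its intervals included the values of the rest. They were 87.9 to 99.0 in siControl, 88.3 to 99.0 in siBAZ2A and 89.0 to 98.6 in siBAZ2B.

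Counted over merged loci, 45 of 235 had no H3K4me3 peak, and 40 of these ended in the first 1.5 Mb. That was 28.2% of its 142 loci (21.4 to 36.1), against 5.38% of the 93 loci from 1.5 to 3 Mb (2.32 to 12.0). By steps of 0.5 Mb the shares were 31.7%, 25.5%, 28.3%, 6.25%, 6.67% and 3.23%, followed by 9.43% at 3 to 6 Mb, 7.86% at 6 to 10 Mb and 11.1% beyond. Over all 6206 loci 88.9% lay on H3K4me3. The 40 outer loci were spread over 12 chromosomes, and chromosome 11 had 9 of the 45 and chromosome 1 had 7. Without chromosome 11 the outer share was 27.4%, without chromosome 1 it was 28.2%, without chromosome 16 it was 30.8%, and without the first 0.2 Mb it was 26.6%. The inner share without chromosome 16 was 8% (4 of 50, 3.15 to 18.8), close to the shares beyond 3 Mb. Chromosome 16 alone had 16% (4 of 25) in the outer part and 2.33% (1 of 43) in the inner part.

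**Figure D4:**
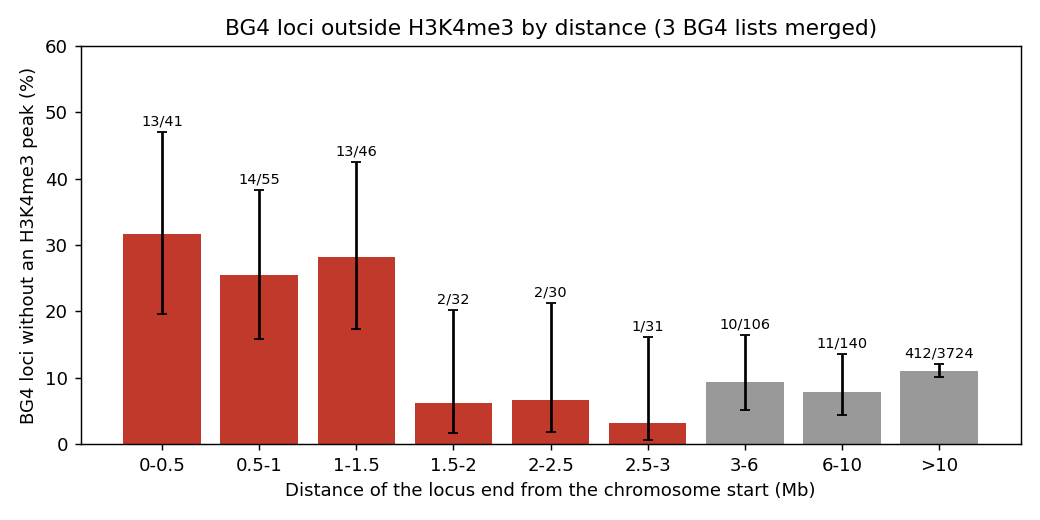
Share of merged BG4 loci that have no H3K4me3 peak, in percent, by distance of the locus end from the chromosome start in Mb, with 95% Wilson intervals and the counts above the bars. Red bars are the terminal 3 Mb and grey bars the rest of the 15 chromosomes. The 3 outer steps are between 25.5% and 31.7%, and the 3 inner ones between 3.23% and 6.67%.

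Loci without H3K4me3 were weaker by rank and were held unequally by the lists. The terminal peaks off H3K4me3 had median percentiles of 27.0 in siControl, 25.8 in siBAZ2A and 32.3 in siBAZ2B, against 48.1, 44.7 and 43.4 for those on it. The rest of the chromosomes had the same order, with 23.3, 31.8 and 36.3 off H3K4me3 against 52.4, 50.9 and 53.0 on it. In the first 1.5 Mb, 11 of the 60 loci found in all 3 lists had no H3K4me3 peak, against 115 of 2322 such loci in the whole series. The same was true of 11 of the 19 loci found in siBAZ2B only (197 of 1192 in the whole series) and of 8 of the 14 found in siControl and siBAZ2B (85 of 383). Of loci found in siBAZ2A only it was true of 1 of 14, against 100 of 755, so the classes were unequal over the whole series as well. Among loci without H3K4me3 in all 3 lists, the start of chromosome 4 and chr4:725158-725990 were above the middle of each list. The latter had folds of 8.89 (siControl), 7.44 (siBAZ2A) and 7.98 (siBAZ2B), at percentiles 81.5, 58.6 and 85.0, and was picked out after its values were seen. Since H3K4me3 was mapped in siControl cells only, its state at these loci after knockdown was not measured.

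Both knockdowns gave more peaks than siControl, but less so in the windows. The number of terminal peaks was 1.08 times the siControl number in siBAZ2A and 1.30 times in siBAZ2B, against 1.37 and 1.56 times in the rest of the chromosomes. On chromosome 16 the terminal number was lower in siBAZ2A (43) than in siControl (48), and it was 54 in siBAZ2B.

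A knockdown peak that shares no base with a siControl peak was called gained. In siBAZ2A 52 of 157 terminal peaks were gained, or 33.1% (26.2 to 40.8), against 43.6% in the rest and 39.9% in the whole list. In siBAZ2B 67 of 190 were gained, or 35.3% (28.8 to 42.3), against 47.8% in the rest and 44.0% in the whole list. Gained peaks thus made up a smaller share of each knockdown list in the terminal 3 Mb. Both comparisons use the same siControl list, in which terminal peaks were over-represented to begin with, so they do not stand for 2 separate observations. Without chromosome 16 the siBAZ2A share was 36.8% (28.6 to 46.0) against 44.1%, so that interval included the rest, while the siBAZ2B share was 38.2% (30.5 to 46.6) against 47.99%.

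Gained terminal peaks were weaker than the kept ones, with a median fold of 5.71 against 7.14 in siBAZ2A and 5.18 against 6.19 in siBAZ2B. Shares were therefore set side by side within quintiles of fold, each with an equal part of the peaks of the whole list. From the weakest to the strongest quintile, 63.9%, 31.0%, 22.7%, 29.2% and 12.1% of terminal siBAZ2A peaks were gained, against 67.4%, 57.0%, 44.7%, 29.7% and 17.8% in the rest. In siBAZ2B the shares were 52.7%, 48.6%, 24.4%, 33.3% and 6.06%, against 61.2%, 58.3%, 55.5%, 39.7% and 25.6%. The terminal share was the lower in 5 of 5 quintiles of each list. Its interval excluded the rest only in quintiles 2 and 3 of siBAZ2A and quintiles 3 and 5 of siBAZ2B. With equal weight to each quintile it was 31.8% (24.8 to 38.7) against 43.3% in siBAZ2A, and 33.0% (26.6 to 39.4) against 48.0% in siBAZ2B.

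The gained share varied with distance without a common order. In steps of 0.5 Mb it was 29.6%, 47.7%, 17.9%, 38.9%, 16.7% and 43.8% in siBAZ2A. In siBAZ2B it was 37.1%, 38.6%, 22.9%, 41.7%, 26.9% and 46.2%. The step from 1 to 1.5 Mb, where the siControl ratio was at its highest, had a low gained share in both lists (5 of 28 peaks in siBAZ2A and 8 of 35 in siBAZ2B). A gained peak is by definition absent from siControl, so the ratio and the gained share are not independent. Within the first 1 Mb the gained share was 40.8% (30.2 to 52.5) against 43.1% in siBAZ2A and 38.0% (28.1 to 49.0) against 47.3% in siBAZ2B, so in the narrower window both intervals included the rest. On chromosome 16 the terminal gained share was 23.3% against 37.4% in siBAZ2A and 27.8% against 44.7% in siBAZ2B. Among chromosomes with at least 5 terminal peaks in the knockdown list, the terminal gained share was below that of the rest of the chromosome on 7 of 9 in siBAZ2A and on 9 of 12 in siBAZ2B.

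A siControl peak that shares no base with a knockdown peak was called lost. In siBAZ2A 42 of 146 terminal peaks were lost, or 28.8% (22.0 to 36.6), against 22.9% in the rest and 23.4% in the whole list. In siBAZ2B 25 of 146 were lost, or 17.1% (11.9 to 24.1), against 18.98% in the rest and 18.6% in the whole list. Both intervals include the value of the rest, so no difference in loss was detectable at this number of peaks. With the siBAZ2B list cut to the siControl length the order turned, to 41.1% against 37.1%. At equal quintiles of fold the shares were 29.9% against 23.1% in siBAZ2A and 17.1% against 19.1% in siBAZ2B.

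The siBAZ2A losses were not confined to weak peaks. From the weakest to the strongest quintile 43.3%, 28.9%, 47.8%, 26.1% and 3.13% of terminal siControl peaks were lost in siBAZ2A, against 50.3%, 30.1%, 19.9%, 11.7% and 3.36% in the rest. The terminal share was the higher in quintiles 3 and 4, which hold 23 peaks each, and the lower in the other 3. In siBAZ2B the shares were 36.7%, 18.4%, 17.4%, 13.0% and 0%, against 42.5%, 25.1%, 16.5%, 9.18% and 2.33%, where 0 of 32 peaks allows a share of up to 10.7%. On chromosome 16, 15 of 48 terminal peaks were lost in siBAZ2A, or 31.3% (19.9 to 45.3), against 12.7% of the rest of that chromosome. The siBAZ2B share there went the other way, at 18.75% against 22.4%. The siBAZ2A interval of chromosome 16 included the 22.9% lost in the rest of the 15 chromosomes. Without chromosome 16 the siBAZ2A lost share was 27.6% (19.7 to 37.1) against 23.6%.

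**Figure D5:**
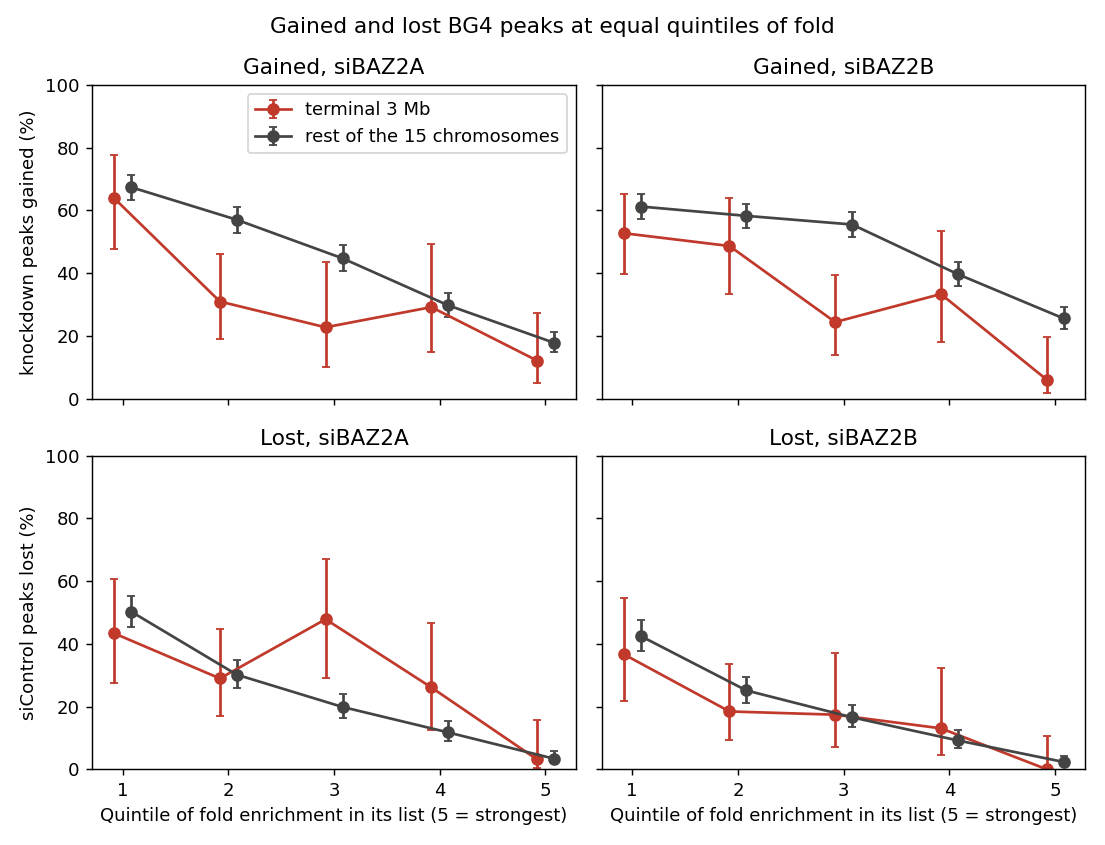
Share of knockdown peaks gained (upper panels) and of siControl peaks lost (lower panels), in percent, within quintiles of fold from 1 (weakest) to 5 (strongest), for siBAZ2A and siBAZ2B, with 95% Wilson intervals. Red points are the terminal 3 Mb and grey points the rest of the 15 chromosomes. The terminal gained share is below that of the rest in all 5 quintiles of both lists, while the lost shares cross. The gained intervals exclude the rest only in quintiles 2 and 3 of siBAZ2A and quintiles 3 and 5 of siBAZ2B.

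The 5 strongest gained terminal peaks of siBAZ2A were all in the siBAZ2B list too, while those of siBAZ2B were only partly in the siBAZ2A list. In siBAZ2A they were chr12:2921710-2922119 (fold 10.4), chr16:188444-188926 (10.3), chr8:1771479-1771968 (9.16), chr1:954793-955391 (9.11) and chr1:2517903-2518649 (8.33), all on H3K4me3 and all also in the siBAZ2B list. In siBAZ2B they were chr16:188455-188941 (10.4), chr18:63507-63993 (9.36), chr4:2537779-2538276 (7.48), chr18:712425-712818 (7.08) and chr12:2921751-2922121 (6.85). The chromosome 18 peaks of this second group were absent from the siBAZ2A list, and the outer of them had no H3K4me3 peak. Over the whole series 935 loci were in both knockdown lists only, 755 in siBAZ2A only and 1192 in siBAZ2B only. Of all gained terminal peaks, 47 of 52 in siBAZ2A lay on H3K4me3, against 1533 of 1698 in the whole list, and 51 of 67 in siBAZ2B, against 1878 of 2139.

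Among the strongest lost peaks, chr1:1184420-1184916 (siControl fold 8.53), chr16:2653291-2653776 (8.30) and chr4:2757766-2758161 (7.85) were missing from both knockdown lists. The siControl peaks chr7:1311793-1312521 (9.07) and chr4:1242117-1242569 (8.10) were missing from siBAZ2A and present in siBAZ2B. The strongest peaks lost in siBAZ2B also included chr5:1799644-1800056 (7.51) and chr11:385024-385610 (7.44), both missing from siBAZ2A too. Peaks without H3K4me3 among these 7 were those of chromosomes 1, 7 and 11. Of all terminal peaks lost in siBAZ2A, 29 of 42 lay on H3K4me3, against 583 of 779 in the whole siControl list. Of those lost in siBAZ2B it was 18 of 25, against 492 of 621.

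Classed by list, 96 of the 235 terminal loci were in all 3 lists, or 40.9%, against 35.0% in the rest and 37.4% of all loci. Loci in both knockdown lists only numbered 29, or 12.3%, against 16.9% in the rest and 15.1% of all loci. Loci in siBAZ2B only made up 16.2% (19.2% of all loci) and loci in siBAZ2A only 9.36% (12.2% of all loci). Loci in siControl and siBAZ2B numbered 25, or 10.6%, against 5.52% in the rest and 6.17% of all loci. Loci in siControl and siBAZ2A numbered 8, or 3.40%, against 3.70% in the rest and 3.71% of all loci. Loci in siControl only made up 7.23%, against 5.82% in the rest and 6.27% of all loci. The largest relative excess was thus in loci shared by siControl and siBAZ2B, all of which count as lost in siBAZ2A.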

How the data were processed

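Peaks of 3 BG4 CUT&Tag groups and 1 H3K4me3 group, each of 4 replicates, were analysed as deposited. The submitters' processing notes list the builds hg19 and dm6 and the tools MACS2 2.1.4, Bowtie2 2.4.5, SAMtools 1.15.1, Picard and bedtools. Peaks were kept by the authors, per the labels, if seen in at least 2 replicates with coordinates from the replicate with most peaks, which leaves 1 list per group. The deposited lists give each peak's fold enrichment (a ratio), the −log10 of its q-value, a score derived from the latter, and its summit. Fold was used to rank peaks within a list, and −log10 q as the alternative. The sources used here do not say how the spike-in was used, nor the read depth. Coordinates are hg19, 1-based.

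Peaks were placed by their end coordinate, and 1 common base made them shared. Shares carry 95% Wilson intervals, ratios exact binomial-based ones, medians order-statistic ones, and standardised shares normal-approximation ones, all over peaks. No test was made, because the lists hold no values for the separate replicates. Quintiles and percentiles were taken over each whole list. Regions were named by rule: the 5 strongest terminal peaks per list, the 5 strongest gained and lost per knockdown, the outermost locus per chromosome, the peaks at the 3 Mb border and the most crowded 0.5-Mb window. Members and lists were chosen with earlier results of these data known. Alternatives were a reciprocal overlap of 50%, a minimum −log10 q of 5, BG4 lists cut to the siControl length, windows of 1 and 5 Mb, chromosomes 17 and 19 added, the first 0.2 Mb left out, the stronger 50% of H3K4me3 peaks, and each chromosome left out. Counting was tested on simulated data. An hg19 genome and annotation were not used here, so loci have no gene names or sequences. SciPy 1.17.1, NumPy 2.4.6, pandas 2.3.3 and matplotlib 3.10.9 were used in Python 3.11.15.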

Additional observations from a re-analysis of the deposited data

How the results depend on the processing

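No paired analysis was possible because every group is 1 peak list, with each peak's values from 1 replicate only. For 23 results, 165 values were recomputed under other settings: 127 moved by less than their interval, 35 moved beyond it and 3 reversed. In 9 the order of terminal and remaining peaks turned, and in 15 an interval that had excluded the rest included it. Terminal values follow, with the rest of the chromosomes in parentheses. At a −log10 q of at least 5, siBAZ2B had a ratio of 30.9 (20.1), 24.9% (18.2) of H3K4me3 peaks with BG4 and 28.8% (44.7) gained, and 6.63% (14.6) of loci were in both knockdowns only. With lists of equal length, the siBAZ2A ratio was 23.4 (17.5), its H3K4me3 share 21.2% (16.4), gained 21.6% (37.1) and lost 37.7% (32.5), and at equal quintiles 21.6% (36.7) and 39.1% (32.8). For siBAZ2B the same values were 22.6 (17.9), 18.8% (16.5), 23.2% (42.7), 41.1% (37.1), 22.7% (42.4) and 40.1% (37.3), so its lost share turned above the rest. Loci in all 3 lists were then 34.4% (31.8) and those in both knockdowns only 4.23% (11.8). With a reciprocal overlap of 50%, H3K4me3 peaks with BG4 were 10.3%, 9.29% and 10.9% (5.04, 5.66 and 7.39) in siControl, siBAZ2A and siBAZ2B. BG4 peaks on H3K4me3 were 34.9%, 29.3% and 28.4% (30.9, 25.3 and 29.1), which reversed the order in siControl and siBAZ2A. In a 1 Mb window, H3K4me3 peaks with BG4 were 20.4% (14.9) in siControl and 26.4% (23.0) in siBAZ2B, siBAZ2B peaks on H3K4me3 68.4% (90.5), siBAZ2A gained 40.8% (43.1), and loci in both knockdowns only 17.7% (16.6), which turned, as did the siControl rank median at 50.4 (50.0). Against the stronger 50% of H3K4me3 peaks the ratios were 77.7, 83.5 and 101.1 (31.6, 43.4 and 49.2), BG4 peaks on H3K4me3 33.6%, 36.3% and 35.3% (46.6, 49.9 and 50.0), and the siBAZ2B H3K4me3 share 35.1% (24.4). Ranked by −log10 q, the siBAZ2B median percentile was 50.8 (48.8), which reversed, and that of H3K4me3 49.9 (52.3). The cause of these moves was not tested, beyond the fewer peaks that the stricter settings keep. Leaving out 1 chromosome at a time, the siControl share of H3K4me3 peaks with BG4 was 20.2% to 25.0%, lowest without chromosome 16. The siControl rank median was 41.0 to 52.1, above the rest (50.2) only without chromosome 16. No other of the 345 leave-one-out values moved beyond its interval or turned its order, but in 2 an interval came to include the rest: siBAZ2A gained without chromosome 16, and siBAZ2A peaks on H3K4me3 without chromosome 1.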
